A study of Mus musculus with 68 samples.

Results

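The Gadd45 family consists of Gadd45a, Gadd45b and Gadd45g, and its 3 members were chosen by gene symbol. All 3 were listed in both sets of tables, out of 13197 genes in the founder set and 12803 in the F1 set. The set was studied in mouse embryonic fibroblasts (MEFs), cells grown from embryos and widely used as a primary culture model, under endoplasmic reticulum (ER) stress. Stress was induced with tunicamycin (TM), an inhibitor of N-linked glycosylation, at 2 ug/ml for 4 h, and control cells received the DMSO vehicle for the same time. The 40 founder libraries came from the 8 inbred strains 129S1Sv/ImJ (129), A/J (A), C57BL/6J (B6), CAST/EiJ (CAST), NOD/ShiLtJ (NOD), NZO/H1LtJ (NZO), PWK/PhJ (PWK) and WSB/EiJ (WSB). The 28 F1 libraries came from 5 crosses of a B6 mother to a father of 129, CAST, NOD, NZO or WSB, written x129, xCAST, xNOD, xNZO and xWSB. Each genotype had 2 or 3 libraries per treatment. Each MEF culture was a mix of female embryos from 1 litter, so a library is a pool of embryos, and whether replicates came from separate litters is not given in the sources used here. P-values therefore measure the spread between these libraries, which may be technical.

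Gadd45 proteins are small acidic proteins without known enzymatic activity that act by binding partners. They bind and activate the kinase MAP3K4 upstream of p38 and JNK, they bind PCNA, p21 and the CDK1-cyclin B1 complex in cell cycle arrest, and they take part in active DNA demethylation with TDG and TET enzymes. Gadd45a is a classical p53 target induced by DNA damage, Gadd45b responds to NF-kB and TGF-beta signaling, and Gadd45g was found as a cytokine-responsive gene. Unfolded protein in the ER activates PERK, whose phosphorylation of eIF2α favors translation of the transcription factor ATF4, which in turn induces CHOP (Ddit3) and other stress genes. The study, citing earlier work, describes the induction of Gadd45a as dependent on ATF4.

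The annotation (GRCm38) places Gadd45a (ENSMUSG00000036390) at chr6:67035096-67037457 on the minus strand, Gadd45b (ENSMUSG00000015312) at chr10:80930073-80932204 on the plus strand and Gadd45g (ENSMUSG00000021453) at chr13:51846678-51848468 on the plus strand. Their annotated exons cover 1764, 1589 and 1173 bp. Gadd45a overlaps E230016M11Rik on the opposite strand, and reads of the overlap cannot be assigned by strand here; that gene was listed between 0 and 1.91 in all founder libraries, far below Gadd45a. The 250 bases before the RefSeq start of each gene (GRCm38.p6) are shown because the 3 genes sit on different chromosomes and responded to TM to different degrees. Capitals mark every match, on either strand, to the 9 motifs searched, in the order of the gene strand from 5′ to 3′.
Gadd45a, minus strand, chr6:67037408-67037657: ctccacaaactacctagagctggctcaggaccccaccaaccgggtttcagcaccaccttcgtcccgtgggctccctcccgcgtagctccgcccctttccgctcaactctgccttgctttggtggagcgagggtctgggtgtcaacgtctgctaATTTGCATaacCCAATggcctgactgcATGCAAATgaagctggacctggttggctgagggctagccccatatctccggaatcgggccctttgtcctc
Gadd45b, plus strand, chr10:80929841-80930090: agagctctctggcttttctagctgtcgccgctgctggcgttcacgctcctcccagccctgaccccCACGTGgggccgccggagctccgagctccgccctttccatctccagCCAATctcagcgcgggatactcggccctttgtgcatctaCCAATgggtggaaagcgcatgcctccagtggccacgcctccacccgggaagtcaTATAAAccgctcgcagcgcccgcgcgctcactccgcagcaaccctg
Gadd45g, plus strand, chr13:51846425-51846674: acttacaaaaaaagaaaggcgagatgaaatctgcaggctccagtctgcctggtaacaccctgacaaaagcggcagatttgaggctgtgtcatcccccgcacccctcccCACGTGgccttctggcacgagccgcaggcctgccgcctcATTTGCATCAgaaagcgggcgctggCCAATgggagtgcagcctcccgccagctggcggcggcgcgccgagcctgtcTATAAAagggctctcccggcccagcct
All 3 windows held a CCAAT box (CCAAT), with 1 match in Gadd45a, 2 in Gadd45b and 1 in Gadd45g, as did 33.8% of 32851 RefSeq promoter windows of the same length. The octamer ATTTGCAT matched at 2 places in Gadd45a, on opposite strands on either side of the CCAAT box, and at 1 place in Gadd45g, against 1.60% of all windows. The C/EBP-ATF response element TGATGCAA, the type of composite site through which ATF4 and CHOP act, matched in Gadd45g alone among the members, on the opposite strand 101 bases before the start and overlapping the octamer, and in 0.791% of all windows. A TATA box (TATAAA, 12.4% of windows) and an E-box (CACGTG, 6.02%) were found in Gadd45b and in Gadd45g. No match to the ER stress response element (CCAAT followed after 9 bases by CCACG, 0.113% of windows), the cAMP response element (TGACGTCA, 1.55%), the AP-1 site (TGACTCA, 4.46%) or the NF-kB site (GGGACTTTC, 0.289%) was found in these windows. A match is a description of these letters only.

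**Figure D1:**
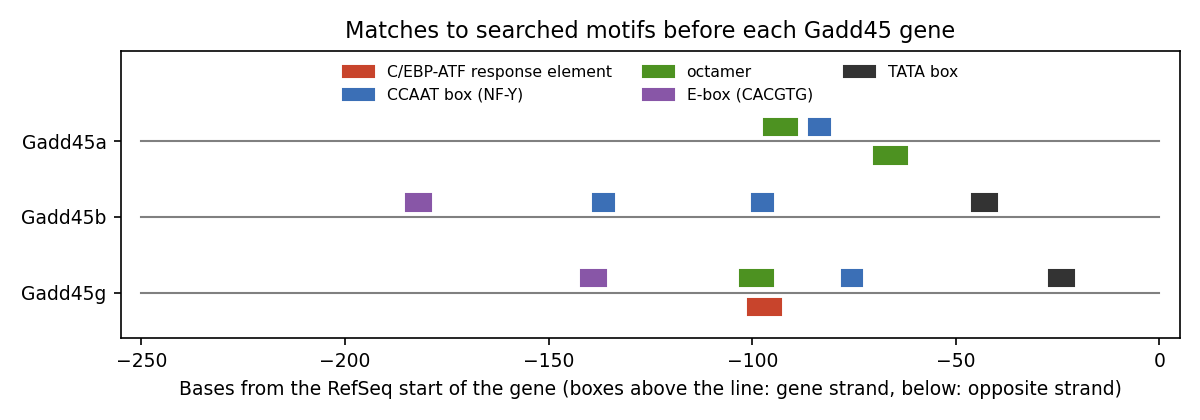
Positions of the motif matches in the 250 bases before the RefSeq start of each Gadd45 gene; the horizontal axis gives bases from the start, boxes above each line are on the gene strand and boxes below on the opposite strand, and box widths are to scale. Gadd45a holds 2 octamers beside its CCAAT box, Gadd45b and Gadd45g each hold a TATA box and an E-box, and the C/EBP-ATF match lies in Gadd45g.

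Levels are given on the scale of CPM, as reads assigned to a gene relative to library size and not per length, and founder and F1 levels are not compared because the sets were scaled separately. Reads assigned to genes ranged from 7091923 to 21530282 over 38 founder libraries and from 6442976 to 29528457 over the 28 F1 libraries. Markers were those of fibroblasts: the summed level of 9 fibroblast genes, all of them detected, ranged from 13224 to 55076 over all libraries, against at most 66.9 for myeloid, 18.7 for endothelial and 132 for epithelial lists. The markers Fcer1g and Epcam were not among the genes listed in either set, and Tie1 was not listed in the founder set. The F1 set also lacked Ptprc, Emr1, Itgam, Tyrobp and Cdh1. Its sums therefore cover only 5 of 10 myeloid and 3 of 5 epithelial markers. Among all libraries, 4 stood farthest from their group mates over all genes: A control 1, A TM 2, NZO TM 3 and xWSB control 1. In bulk RNA, a change in the share of cells that express a gene and a change in RNA per cell cannot be told apart.

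Gadd45a was low in control cells and rose strongly with TM in every genotype. It was raised in 8 of 8 founder strains and 5 of 5 F1 crosses, by 7.32-fold in B6 to 16.7-fold in PWK among the founders and by 9.57-fold in x129 to 17.5-fold in xCAST among the F1. By the same rule (limma, adjusted p below 0.01 over all genes tested and at least 1.5-fold) the share of all genes raised was 0.315% in 129, 0.346% in A, 5.04% in B6, 2.54% in CAST, 1.45% in NOD, 0.32% in NZO, 6.36% in PWK and 2.85% in WSB. In the F1 it was 4.88% in x129, 2.52% in xCAST, 3.69% in xNOD, 1.44% in xNZO and 0.185% in xWSB. By size of the change, Gadd45a ranked between 6 and 21 of 12543 to 12820 genes tested in the founder strains and between 3 and 9 of 12282 to 12516 in the F1 crosses.

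In the 129 strain, Gadd45a was at 6.66 and 5.08 in the control libraries and at 106, 75.7 and 65.9 in the TM libraries. A controls were at 15.4, 7.38 and 5.44, and A with TM at 103, 167 and 147. The B6 controls were nearly equal, at 15.3 and 15.1, and TM brought B6 to 111 and 113. The highest B6 control and the highest A control were nearly equal, while the other A controls were near the remaining strains. CAST had the lowest means of both treatments, with 4.92 and 2.97 in control cells and 32.7 and 28.9 with TM. NOD went from 10.8 and 7.06 to 67.2, 68.3 and 75.0. NZO controls were at 4.55 and 4.20, and its TM libraries at 58.9, 52.7 and 107. The highest of these NZO values belonged to NZO TM 3, which stood apart for all genes. In PWK, levels of 7.36, 9.37 and 8.12 became 148, 119 and 154. WSB controls stood at 6.70 and 5.88 against 95.7, 90.2 and 107 with TM. No control library of any strain reached the TM range of any strain. Among the F1, x129 had 6.70, 6.21 and 7.40 in controls and 64.3, 60.2 and 72.5 with TM. xCAST had the lowest controls, 3.53 and 4.02, and reached 58.9, 66.9 and 78.0. xNOD rose from 7.56, 9.04 and 8.97 to 80.2 and 94.5. Controls and TM libraries were thus separate in each of these crosses. xNZO controls were at 7.15, 5.93 and 5.84 and TM libraries at 61.5, 89.4 and 75.6. xWSB was highest of the crosses in both treatments, at 14.6, 10.0 and 9.41 in controls and 119, 134 and 132 with TM.

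**Figure D2:**
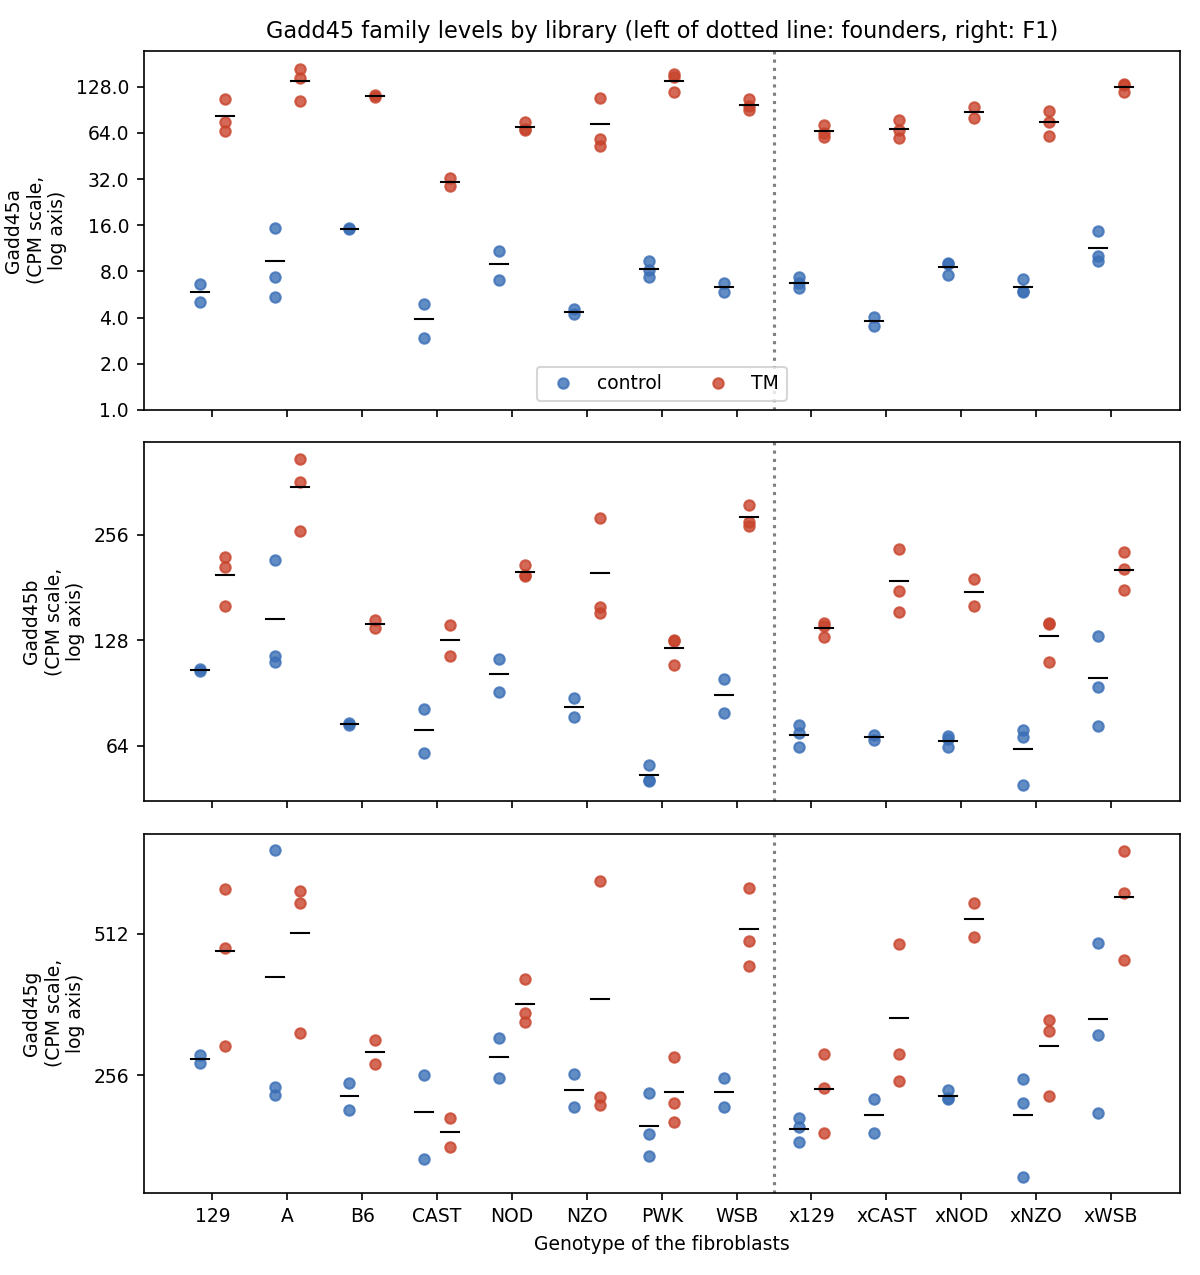
Level of each member (CPM scale, logarithmic axis) in every library of the 13 genotypes; blue points are control libraries, red points TM libraries, black bars group means, and the dotted line separates founders from F1, which were scaled separately. TM libraries lie above controls in every genotype for Gadd45a and Gadd45b, whereas Gadd45g groups overlap in 7 of 13 genotypes.

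The log2 change of Gadd45a was 3.78 (SE 0.24, adjusted p 0.00158) in 129, 3.98 (SE 0.38, 0.00222) in A and 3.96 (SE 0.32, 0.00741) in NZO, the strains with the widest spread between libraries. In these strains the call depended on single libraries. It was lost without 129 TM 2 (limma adjusted p 0.063) and without any 1 of the A TM libraries (0.0102 to 0.0252). It was also lost without NZO TM 1 (0.0573) or NZO TM 2 (0.0212). The number of all genes raised fell from 40 to 0 in 129 and from 41 to 1 in NZO. In A it fell from 44 to 10, 16 and 5 without A TM 1, 2 and 3. The losses were thus not particular to Gadd45a. The change was 3.97 and 3.58 without 129 control 2 and 3. Without NZO control 2 and 3 it was 4.01 and 3.9. Where 1 library was left in a group, it was assumed to vary like those of the other group. The change itself stayed between 3.58 and 4.18 in all of these refits. PWK had the largest founder change, 4.07 (SE 0.12), and B6 the smallest, 2.87 (SE 0.09). Over the founder set the mean change was 3.57 (SE 0.11, limma adjusted p 7.15e-22), and over the F1 set 3.56 (SE 0.07, adjusted p 7.59e-21). The share of all genes with a higher mean level at that threshold was 20.5% in the founders and 16.9% in the F1.

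Gadd45b, the member tied to NF-kB and TGF-beta signaling, was already well expressed in control cells and rose by a smaller factor. It was raised in 7 of 13 genotypes, namely B6, NOD, PWK, WSB, x129, xCAST and xNOD, and the TM libraries lay above all controls in 13 of 13. The share of all genes with every TM library above every control was 22.9% in 129, 10.5% in A, 32.6% in B6, 28.7% in CAST, 18.4% in NOD, 19.3% in NZO, 21.7% in PWK and 25.7% in WSB. In the F1 it was 21.8% in x129, 21.1% in xCAST, 27.8% in xNOD, 16.4% in xNZO and 9.9% in xWSB. WSB showed the largest founder change, 3.24-fold (log2 1.69, SE 0.15), and CAST the smallest, 1.82-fold (log2 0.86, SE 0.16, adjusted p 0.0108), which did not pass. The F1 changes ran from 2.02-fold in x129 to 2.74-fold in xCAST.

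Gadd45b levels in 129 were 104 and 106 in controls and 221, 208 and 160.2 with TM. A had the highest means, with 217, 115 and 111 in controls and 263, 423 and 364 with TM. The high A control was A control 1, which came closest to the TM range, and the change in A (log2 1.29, SE 0.31) did not pass (adjusted p 0.108). B6 libraries were tight, at 73.5 and 74.5 against 147 and 139. CAST controls were at 81.3 and 61.0 and its TM libraries at 116 and 142. NOD moved from 113 and 91.3 to 197, 195 and 209.9. No TM library of these strains was below a control of its own strain. NZO had 87.5 and 77.5 in controls and 159, 153 and 287 with TM, the last again being NZO TM 3. Without NZO TM 3 the change was 0.92 and passed (limma adjusted p 8.19e-09), while all genes raised went from 41 to 1289. PWK had the lowest means in both treatments, at 56.4, 50.6 and 51.0 in controls and 128, 109 and 127 with TM. WSB rose from 99.3 and 79.1 to 272, 279 and 312. PWK with TM was thus near the level of A controls, although its TM libraries were clear of its own controls. In x129 the controls were at 69.6, 63.3 and 73.2 and the TM libraries at 144, 131 and 141. xCAST had 68.9 and 66.3 against 154, 177 and 234. xNOD had 67.1, 63.3 and 68.1 against 160.1 and 191. The controls of these 3 crosses lay close together. xNZO went from 71.0, 67.6 and 49.4 to 111, 143 and 142 (adjusted p 0.0104, just missing the threshold). xWSB had the widest controls of the crosses, with 132, 94.3 and 72.8, and was at 178, 205 and 229 with TM (adjusted p 0.111).

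Over the founder set, Gadd45b rose by 1.13 on the log2 scale (SE 0.08, limma adjusted p 1.86e-12) and over the F1 set by 1.20 (SE 0.08, adjusted p 5.49e-11). The calls of single genotypes depended on single libraries. NOD did not pass without any 1 of its TM libraries (limma adjusted p 0.0253 to 0.042), nor xNOD without any 1 of its controls (0.0201 to 0.0202). All genes raised then fell from 185 to between 37 and 64 in NOD. In xNOD they fell from 460 to between 13 and 19. In the other direction, 129 passed without 129 TM 3 (0.00386) and xNZO without xNZO control 3 (0.00338). All genes raised then rose from 40 to 249 and from 180 to 300, so these shifts are not particular to Gadd45b. The CAST change was 1.07 without CAST control 1, 0.65 without CAST control 3 and 1.01 without CAST TM 2. With 1 fit over each set in place of 1 fit per genotype, 9 of 13 genotypes passed, and without a trend in the prior variance 2 of 13. The share of all genes raised under these settings is not given here, so these counts are not read as a trait of Gadd45b.

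Gadd45g, the cytokine-responsive member, was the most abundant and the least changed. It was raised in WSB (2.20-fold, log2 1.14, SE 0.17, adjusted p 0.0025) and in xNOD (2.36-fold, log2 1.24, SE 0.11, adjusted p 0.0022), and in no other genotype. Both calls were lost when single libraries were left out. The limma adjusted p was 0.0145 without WSB TM 2 and 0.024 to 0.0251 without any 1 of the xNOD controls. All genes raised then fell from 361 to 105 in WSB and from 460 to between 13 and 19 in xNOD. The WSB change was 1.24 without WSB control 2 and 1.04 without WSB control 3. Without 129 TM 3, 129 passed as well (0.00916), while all genes raised went from 40 to 249. With 1 fit over each set 1 genotype passed, and without a trend in the prior variance 0, again without the share of all genes beside them. TM libraries lay above all controls in 4 of 8 founders (129, B6, NOD and WSB) and in 2 of 5 F1 crosses (xCAST and xNOD), against 9.9% to 32.6% of all genes by genotype. In B6 the change was small, 1.24-fold, with an adjusted p of 0.00793. No member was lowered in any genotype. The share of all genes lowered was 0.00787% in 129, 0.00786% in A, 3.22% in B6, 0.478% in CAST, 0.165% in NOD, 0.0078% in NZO, 4.3% in PWK and 4.2% in WSB, and in the F1 1.36% in x129, 1.2% in xCAST, 4.6% in xNOD, 0.152% in xNZO and 0.0161% in xWSB.

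Levels of Gadd45g in 129 were 283 and 272 in controls and 636, 477 and 296 with TM. A control 1 had the highest level of any founder library, 771, against 233 and 242 in the other A controls, while A with TM was at 316, 631 and 594. That library alone placed an A control above every A TM library. The B6 libraries were at 216 and 247 in controls and 304 and 270.3 with TM. In CAST the means went down rather than up, from 257 and 170.3 to 180.2 and 207, a log2 change of -0.11 (SE 0.18, adjusted p 0.706); without CAST control 1 it was 0.18 and without CAST control 3 it was -0.41. NOD had 308 and 252 against 348, 332 and 409.6. CAST was therefore the single genotype with a change below 0. NZO controls were at 219 and 258, and its TM libraries at 230.0, 221 and 664. Without NZO TM 3 the NZO change turned from 0.44 to -0.08. PWK went from 234, 192 and 173 to 224, 204 and 279.5. WSB was clear of overlap, with 252 and 219 in controls and 438, 495 and 641 with TM. Among the F1, x129 had 199, 185 and 208 against 240.3, 193 and 284. xCAST had 228 and 193 against 284, 249 and 486. The controls of xNOD were tight, 228, 238 and 229, and both TM libraries were far above, at 504 and 596. This was the clearest separation of Gadd45g in the 13 genotypes. xNZO had 252, 224 and 156 in controls and 231, 336 and 318 with TM. xWSB had 489, 311 and 213 in controls and 451, 624 and 767 with TM, and xWSB control 1, the highest control, was another library that stood apart.

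Over the founder set the mean change of Gadd45g was 0.45 on the log2 scale (SE 0.14, limma adjusted p 0.00949), a value close to the threshold that was missed in 31 of 40 refits without 1 library, such as NZO TM 3 (0.38, adjusted p 0.0102). It was 0.71 over the F1 set (SE 0.12, adjusted p 5.11e-05). Without the 4 libraries that stood farthest apart the founder change was 0.43 (adjusted p 0.000126).

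**Figure D3:**
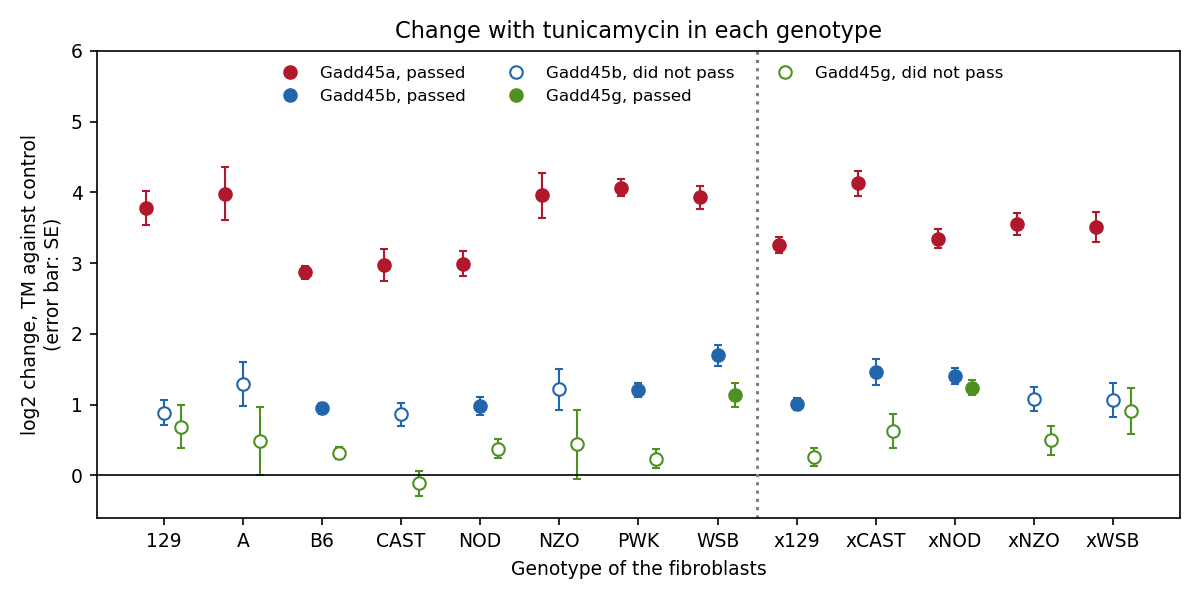
The log2 change with TM (vertical axis) of the 3 members in each genotype, with error bars of 1 SE; filled points passed the test (adjusted p below 0.01 and at least 1.5-fold) and open points did not. Gadd45a lies between 2.87 and 4.13 in all 13 genotypes, Gadd45b between 0.86 and 1.69, and Gadd45g between -0.11 and 1.24.

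The members were then set against each other within libraries, which removes any factor common to all genes of a library. The change of Gadd45a exceeded that of Gadd45b by 2.43 on the log2 scale in the founders (SD 0.40 over 8 strains) and by 2.35 in the F1 (SD 0.28 over 5 crosses). Against Gadd45g the excess was 3.12 (SD 0.46) and 2.85 (SD 0.52). Gadd45b in turn exceeded Gadd45g by 0.69 (SD 0.25) and 0.50 (SD 0.32). The order held in 8 of 8 founders and 5 of 5 crosses for each pair. In a two-sided permutation test with 100000 resamples and labels permuted within genotype, adjusted over these 6 comparisons, the adjusted p was 1.2e-05 for 5 of them and 3e-05 for Gadd45b against Gadd45g in the F1; the unadjusted p of the 5 was 1e-05, the smallest these permutations can give.

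Per kilobase of exon, the order of levels was the reverse of the order of change. In founder controls the median level per kb was 3.90 for Gadd45a, 53.1 for Gadd45b and 208 for Gadd45g, and in 18 of 18 libraries Gadd45g was highest and Gadd45a lowest. With TM the medians per kb were 56.3, 123 and 276, and the order was the same in 20 of 22 founder libraries. In the other 2 libraries, Gadd45a was above Gadd45b. In the F1, Gadd45g was highest and Gadd45a lowest in 14 of 14 controls and 14 of 14 TM libraries, with TM medians per kb of 43.5, 98.9 and 279.

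The cultures of the strains differed in how much Gadd45a and Gadd45b they had, in control cells and under stress. Separate litters are not given for any strain or cross, so genotype cannot be told apart from litter or culture in such comparisons. In control cells the founder means of Gadd45a spanned 3.85-fold, from 3.94 in CAST to 15.2 in B6 (limma F test, adjusted p 0.000235), and under TM they spanned 4.56-fold (CAST 30.8, PWK 140.4, adjusted p 8.9e-06). The share of all genes with a strain difference was 37.2% in controls and 46.5% under TM. By mean, the TM order was CAST, NOD, NZO, 129, WSB, B6, A and PWK; CAST was apart from NOD, WSB was apart from B6, and the other neighbours overlapped in their libraries. Gadd45b means spanned 2.81-fold in controls (PWK 52.7, A 148, adjusted p 0.000159) and 2.88-fold under TM (PWK 122, A 350.1, adjusted p 3.45e-06). For Gadd45g the control levels did not pass (PWK 199.8 to A 415, adjusted p 0.558), nor did the TM levels (CAST 194 to WSB 524, adjusted p 0.0158), which passed without A control 1 (0.00187), without A TM 1 (0.00562), without 129 TM 3 (0.00676) or without NZO TM 3 (0.00129). B6, with the highest Gadd45a mean in controls, was among the 3 lowest for Gadd45b under TM, and PWK was highest for Gadd45a and lowest for Gadd45b under TM.

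Among the F1 crosses, Gadd45a differed in controls (xCAST 3.78 to xWSB 11.4, adjusted p 2.98e-06) and under TM (x129 65.7 to xWSB 128, adjusted p 0.000106), where 24.8% and 34.7% of all genes did. Gadd45g differed under TM (x129 239 to xWSB 614, adjusted p 0.000657) and not in controls (adjusted p 0.2). Gadd45b did not pass in controls (adjusted p 0.0405) or under TM (0.017); without xWSB control 3 both passed (0.00517 and 0.0066), and without xWSB control 1 the TM levels did (0.00415). xWSB had the highest mean of all 3 members in both treatments.

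Whether the size of the TM response itself depended on the strain was tested as an interaction of genotype and treatment. No member passed, with adjusted p of 0.926 for Gadd45a, 1.0 for Gadd45b and 1.0 for Gadd45g in the founders and 0.782, 0.797 and 0.79 in the F1, where 0.174% and 0.0547% of all genes passed. A test of the kind the study used, on log2 of each TM library over the median control of its strain, takes the control level as known; there Gadd45a passed (range between strains 1.31 on the log2 scale, adjusted p 0.00566), whereas Gadd45b (0.065) and Gadd45g (0.24) did not, and 3.46% of all genes did. Without the 4 libraries that stood apart, the interaction of Gadd45a had an adjusted p of 0.03.

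B6 and CAST, the parents of the cross with the largest Gadd45a change, differed in Gadd45a by 1.96 on the log2 scale in control cells (B6 higher by 3.90-fold, SE 0.33, limma adjusted p 5.62e-05) and by 1.86 under TM (3.63-fold, SE 0.33, adjusted p 0.000112). The share of all genes that differed was 11.7% and 11.1%. The difference between their TM changes was -0.10 (SE 0.47, adjusted p 1.0), an interval wide enough to hold a change in either direction. For Gadd45b the B6 minus CAST difference was 0.07 (SE 0.26) in controls and 0.16 (SE 0.26) under TM, and for Gadd45g 0.14 (SE 0.44) and 0.57 (SE 0.44), none of which passed. These are total levels; reads of the 2 alleles in the F1 were not analysed here.

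The changes of the F1 are given beside those of their parents without a test, as the sets were fitted separately. For Gadd45a, xCAST changed by 4.13 (SE 0.18) beside 2.87 (SE 0.09) in B6 and 2.97 (SE 0.22) in CAST, so that the cross lay above both parents. x129 changed by 3.26 (SE 0.11) and xNZO by 3.55 (SE 0.16), between B6 and the other parent (129 3.78, NZO 3.96). xWSB, at 3.51 (SE 0.21), also lay between B6 and WSB (3.93), and xNOD, at 3.34 (SE 0.14), above both B6 and NOD (2.99, SE 0.18). For Gadd45b, xCAST (2.74-fold) and xNOD (2.64-fold) lay above both parents (B6 1.93-fold, CAST 1.82-fold, NOD 1.97-fold), and xWSB (2.10-fold) lay between B6 and WSB (3.24-fold). The change of x129 (2.02-fold) was above B6 and 129 (1.85-fold), and that of xNZO (2.12-fold) between B6 and NZO (2.32-fold). On the log2 scale x129 was at 1.01 (SE 0.09), B6 at 0.95 (SE 0.08) and 129 at 0.89 (SE 0.18), so their order is not resolved. The Gadd45b change of xNZO, 1.08 (SE 0.17), was within 1 SE of both B6 and NZO (1.21, SE 0.29). That of xWSB, 1.07 (SE 0.24), was within 1 SE of B6, so these placements are not resolved either. For Gadd45g, xNOD changed by 1.24 (SE 0.11) beside 0.31 (SE 0.08) in B6 and 0.38 (SE 0.14) in NOD. The change of x129, 0.26 (SE 0.13), was below both B6 and 129 (0.69, SE 0.30), and that of xWSB, 0.91 (SE 0.32), between B6 and WSB (1.14, SE 0.17). xCAST, at 0.63 (SE 0.24), and xNZO, at 0.50 (SE 0.21), lay above both of their parents (CAST -0.11, SE 0.18, and NZO 0.44, SE 0.49). The gaps of x129 from B6, of xNZO from both parents and of xWSB from WSB were smaller than the SE of the cross. These Gadd45g placements are not resolved.

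Replicates of a group did not scatter independently for the 3 genes: a library high for one tended to be high for the others. There were exceptions, such as CAST TM 2, at 0.18 from its group mate for Gadd45a, -0.29 for Gadd45b and -0.20 for Gadd45g on the log2 scale. With each library expressed as its deviation from the mean of its group, Pearson r was 0.89 for Gadd45a with Gadd45b, 0.88 for Gadd45a with Gadd45g and 0.95 for Gadd45b with Gadd45g over the 40 founder libraries. Over the 28 F1 libraries the same values were 0.81, 0.78 and 0.92. Spearman rho of these pairs was 0.78, 0.79 and 0.89 in the founders and 0.77, 0.76 and 0.92 in the F1. In groups of 2 libraries the deviations are equal and opposite, so the points are not all independent. These points share their library and its scaling, and other genes had values as high. By r with Gadd45b, Gadd45g ranked 8 of 11238 genes in the founders and 23 of 10987 in the F1. By r with Gadd45a, Gadd45b ranked 193 and 96 and Gadd45g 282 and 181, and by r with Gadd45g, Gadd45b ranked 133 and 80 and Gadd45a 737 and 715. The genes closest to Gadd45g by this measure, chosen after their values were seen, were Rpl13a (r 0.98) and Arl6ip4 (r 0.98). Gadd45g had the largest spread of the members within groups, an SD of 0.48 on the log2 scale in the founders, at the 94.8 percentile of all genes, against 0.35 for Gadd45a and 0.27 for Gadd45b (median of all genes 0.23). In the F1 the SD was 0.35 for Gadd45g (83.6 percentile), 0.23 for Gadd45b and 0.19 for Gadd45a (median of all genes 0.22). In A control 1, the library lay above its group mates by 1.26 for Gadd45a, 0.94 for Gadd45b and 1.70 for Gadd45g, and in NZO TM 3 by 0.95, 0.88 and 1.56. The part of this shared spread in the changes of Gadd45b and Gadd45g was not tested.

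**Figure D4:**
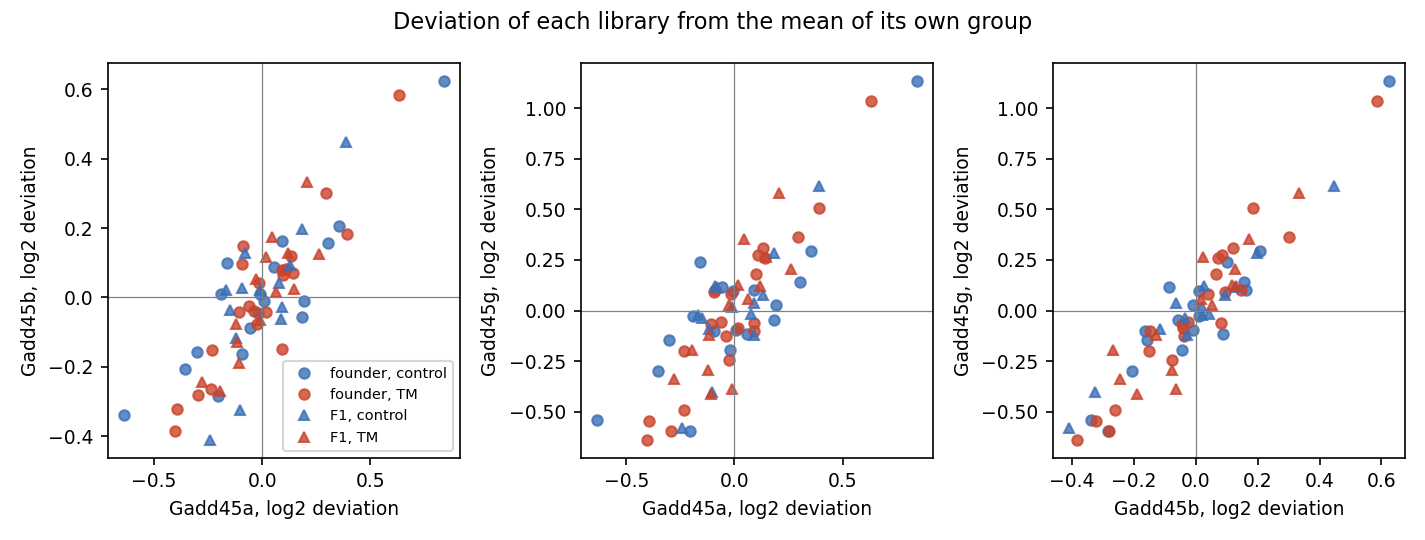
Deviation of each library from the mean of its own genotype and treatment group (log2 scale, both axes) for each pair of members; circles are founder libraries, triangles F1 libraries, blue controls and red TM. Points fall along a rising line in each panel, with Pearson r from 0.78 to 0.95 per set, and A control 1 and NZO TM 3 lie at the upper right.

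The genes whose levels were most like each member differed between members. Over the 40 founder libraries, Gadd45a followed Ddit3 (r 0.97, and 0.99 over the 28 F1 libraries), which encodes CHOP, Ppp1r15a (0.97 and 0.99), which encodes the eIF2α phosphatase subunit GADD34, Atf4 (0.97 and 0.97), Atf3 (0.97 and 0.97), a stress-induced partner of that factor family, and the bZIP repressor Nfil3 (0.97 and 0.97). The closest to Gadd45b were Traf2 (0.92 and 0.92), an adaptor of TNF receptor signaling, the autophagy receptor Sqstm1 (0.91 and 0.85), Phkg2 (0.91 and 0.83), Preb (0.91 and 0.73), which acts in export from the ER, and Fiz1 (0.90 and 0.64). Gadd45g lay closest to Mob2 (0.94 and 0.91), Prkrip1 (0.94 and 0.91), Tsr3 (0.94 and 0.96) and Rassf1 (0.92 and 0.88). When the 13 changes by genotype were compared in place of levels, the closest were Nop14 (r 0.88), Tdg (0.85) and Stxbp3 (0.85) for Gadd45a, Uap1 (0.92), Utp14a (0.90) and Cstf3 (0.90) for Gadd45b, and Sertad1 (0.98), Eef1d (0.98) and Fam53a (0.97) for Gadd45g. The changes of the members themselves correlated by r 0.63 (Gadd45a with Gadd45b), 0.32 (Gadd45a with Gadd45g) and 0.66 (Gadd45b with Gadd45g) over the 13 genotypes. All of these are descriptions across libraries or genotypes that share treatment and scaling.

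Genes of the pathways in which the family acts are given by counts, to be read against the 0.185% (xWSB) to 6.36% (PWK) of all genes raised per genotype. Of 15 genes of the PERK-ATF4-CHOP arm, all tested, between 5 and 12 were raised and 0 lowered per genotype, and their median change was 0.74 to 1.33, against -0.06 to 0.01 for all genes. Ddit3 was raised in 13 of 13 genotypes, with a median log2 change of 4.01 in the founders and 3.90 in the F1, and Atf3 also in all of them (3.23 and 2.95). Ppp1r15a was raised in 7 of 8 founders and 5 of 5 crosses (1.71 and 1.68), and Atf4 in 5 and 4 (1.24 and 1.17). Ddit3 and Ppp1r15a belong with Gadd45a to the genes first named for growth arrest and DNA damage.

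Of 15 genes of p53, which acts upstream of Gadd45a in DNA damage, and its targets, 0 to 5 were raised and 0 lowered. The list medians were 0.04 to 0.31, and Bbc3 was also counted in the PERK-ATF4-CHOP arm. The most were raised in PWK and in xCAST, 5 of 15 (33.3%) in each, where 6.36% and 2.52% of all genes were, and 3 of 15 were raised in WSB, against 2.85%. Trp53 changed by a median of 0.05 in the founders and -0.05 in the F1, and Cdkn1a, the p21 gene that is a main p53 target, by -0.23 and -0.14, with no call in either. Mdm2, which encodes the p53 ubiquitin ligase, was raised in 1 founder and 1 cross (median 0.50 and 0.57). The genes of this list called most often, named after their values were seen, were Plk2 (5 founders and 3 crosses, 0.93 and 0.73), Btg2 (3 and 2, 0.68 and 0.48) and Plk3 (3 and 1, 0.80 and 0.55).

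For the regulators tied to Gadd45b, 0 to 7 of 14 NF-kB and TGF-beta genes were raised and 0 lowered, with list medians of 0.14 to 0.93. Nfkbia, the NF-kB inhibitor and target, was raised in 6 founders and 4 crosses (median 1.56 and 1.47), whereas Smad7, a TGF-beta target, was not called (-0.10 and -0.10). Of 8 immediate early genes, 0 to 7 were raised, the most in PWK (87.5%, against 6.36% of all genes). Fos was raised in 1 founder (0.40 and 0.27), and Jun in none (0.14 and 0.27). The most often raised of this list, named after their values were seen, were Myc (6 founders and 4 crosses, 1.35 and 1.24) and Egr1 (5 and 4, 1.37 and 1.16), followed by Junb and Ier2 (2 and 3 each).

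For the binding partners of the family, the lists are so short that at the share of all genes raised, under 1 call per list would come from the background, and the counts are given as a description. No gene of the 11 p38 and JNK kinases was raised, and at most 1 was lowered per genotype; Map3k4 (median -0.41 and -0.33) and Mapk14, which encodes p38α (-0.26 and -0.26), were not called, and Map2k7 was lowered in 1 founder (-0.42 and -0.44). Of 8 cell cycle partners, 0 were raised and 0 lowered in any genotype, with Cdk1 at -0.18 and -0.20, Ccnb1 at 0.02 and -0.16 and Pcna at -0.02 and -0.14. Of 7 DNA demethylation partners, at most 1 was raised and at most 2 were lowered per genotype. Tdg, the glycosylase of that pathway, stood at 0.29 and 0.28 with no call, and Tet2 at -0.15 and -0.38 with 1 founder lowered. Gadd45gip1, which encodes a mitochondrial protein named for binding Gadd45 proteins, was not called in any genotype (-0.03 and 0.17).

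**Figure D5:**
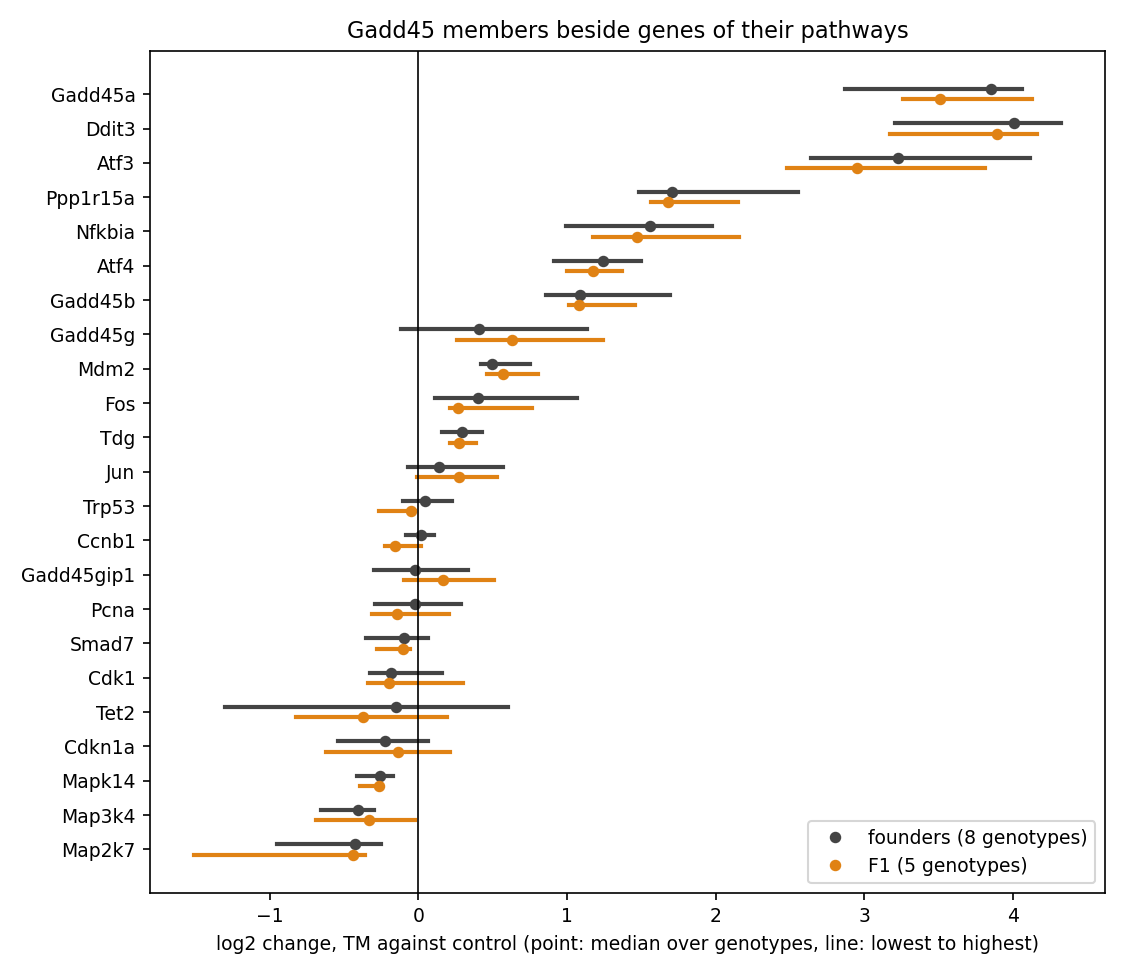
The log2 change with TM of the 3 members and of 20 genes from pathway lists; points are medians over genotypes and lines run from the lowest to the highest genotype, dark for the 8 founders and orange for the 5 F1 crosses. Gadd45a lies beside Ddit3 and Atf3 near 3 to 4, and Gadd45b near Atf4. Medians of Ccnb1 and Pcna lie near 0, and those of Cdk1, Cdkn1a, Map3k4, Mapk14 and Map2k7 lie below 0.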

How the data were processed

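The members and lists were chosen with earlier results of these data known. RNA-seq values of 68 MEF libraries were analysed, after the authors had removed others. Per the study's methods, alignment used TopHat 1.4.1 with 3 mismatches against a genome made for each strain. The submitters' processing notes name the build GRCm38. The authors scaled libraries with TMM in edgeR, removed outlying libraries by principal components and scaled the rest again, which narrows the spread between replicates. The authors name the deposited values FPKM, and the tests were planned for FPKM. The deposited signal instead consists of whole multiples of 1 step per library, which are the authors' reads scaled by library size without division by length, so the same log-scale tests were kept. Whole reads were recovered for 66 libraries (100% of values whole, tolerance 0.05 of a read). For PWK TM 2 and WSB TM 1 the step is close to a round decimal, so these 2 were left out of tests on reads. In the F1 set, 3 rows that name no gene hold 15.5% to 24.1% of the reads and were left out of the tests.

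TM was compared with control by limma 3.58.1 (R 4.3.3) on log2(value + 0.1), over genes at 0.5 or more in at least 2 libraries of the genotype, with Benjamini-Hochberg adjustment over all genes. Fold changes on this scale understate the change of low genes. Levels, interactions and mean changes came from 1 fit per set (adjusted p below 0.01). Scripts (Python 3.11.15, numpy 2.4.6, edgeR 4.0.16 for alternatives) were tested on simulated data. The genes named beside the members were the 5 most correlated in level (mean of at least 2), the 3 most correlated in change, and 20 genes from the lists. One gene that this rule names is not reported here. Same-numbered libraries correlated above 0.1 in 11 of 29 pairs and different-numbered ones in 20 of 60, so numbers were not taken as pairs. In groups of 2 libraries the deviations mirror each other, so this check cannot exclude pairing there. Alternatives were pseudocount, filter, scaling, prior trend, set-wide fits, edgeR, blocks and libraries left out. Promoters are from RefSeq.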

Additional observations from a re-analysis of the deposited data

How the results depend on the processing

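The number of genotypes in which Gadd45a was raised was 13 in all settings tried except without a trend in the prior variance (11) and with edgeR on recovered reads (12), and it ranged from 12 to 13 when libraries were left out singly. For Gadd45b the count of 7 became 2 without the trend and ran from 6 to 8 with single libraries left out. For Gadd45g the count of 2 became 0 without the trend and 1 with 1 fit over the set, with or without the replicate number as a block, and ran from 1 to 3 with single libraries left out. Without the 4 farthest libraries, an alternative chosen after seeing the data, the counts were 13, 9 and 2. The share of all genes raised under each setting is not given beside these counts. They are therefore not read as a trait of the members.

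The founder mean change of Gadd45g missed the threshold with median-of-ratios scaling (0.43, adjusted p 0.0122), without the trend (0.45, 0.0131), with edgeR (0.48, 0.01) and with the replicate block (0.43, 0.0138). It ran from 0.38 to 0.52 over the refits without 1 library, and 31 of 40 missed the threshold. In these refits the founder TM level range of Gadd45g ran from 1.32 to 1.66 (4 of 40 passed), the F1 control level range of Gadd45b from 0.42 to 0.85 and its TM level range from 0.54 to 0.72. Each set was also fitted without those of the 4 farthest libraries that belong to it. The TM level of Gadd45g in the founders (1.42) and of Gadd45b in the F1 (0.63) then passed. The interaction of Gadd45a passed in the test with the control taken as known (1.31). The B6 minus CAST difference in TM change was reversed with a pseudocount of 1 for Gadd45a (0.090) and with the replicate block for Gadd45b (-0.025). With single libraries left out it ran from -0.46 to 0.25 for Gadd45a and from -0.12 to 0.29 for Gadd45b, and none of these passed. The Gadd45g change in CAST was 0.18 without CAST control 1 and -0.41 without CAST control 3. In NZO it was -0.076 without NZO TM 3, the only 1 of the farthest libraries in that strain, and 0.71 without NZO TM 2. The cause of these shifts was not tested. The differences between members kept their direction and call in all alternatives, including the same-numbered pairs. Replicate numbers were not taken as pairs, and the block changed no other call of the results over a set. Within genotypes the block could be fitted only where degrees of freedom remained, and it brought Gadd45b in 129 and NZO and Gadd45g in 129 past adjusted p 0.01.

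The effect of depth on the members was not tested. Over the 66 libraries with recovered reads, the smallest count was 36 reads (Gadd45a, CAST control 3), where counting error is largest.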
